A study of Mus musculus with 26 samples.

Results

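The genes described here were 10 members of the TGF-β pathway, taken by symbol from the 31053 genes listed for every microglia library: the ligands Tgfb1 and Tgfb2, the receptors Tgfbr1 and Tgfbr2, the signal carriers Smad2 and Smad3, the inhibitors Smad7 and Ski, and Nrros and Itgb8, which hold and release the latent ligand. They were followed in the 26 single-cell and single-nucleus RNA libraries of the series, 18 of sorted microglia and 8 of cortical nuclei, each summed to 1 value per gene. Dams received saline or Poly(I:C) by injection at E12.5. Poly(I:C) is an artificial RNA duplex that sets off an antiviral response in the mother, a treatment called maternal immune activation (MIA). Microglia came from wild-type C57Bl/6N somatosensory cortex (S1) at E13 and E15 (3 saline and 3 MIA libraries at each stage) and at postnatal day 14 (P14; 4 saline and 2 MIA libraries), and were sorted with antibodies to Cd11b, Cx3cr1 and Cd45. Nuclei came from S1 of male E15 embryos of a Csf1r line on C57Bl/6N, either wild-type (WT) littermates or Csf1r-/- (called Csf1r-null here), after saline or MIA, with 2 libraries in each of the 4 groups. Csf1r is the receptor that microglia need to survive, so the Csf1r-null cortex served as a cortex without them. Several embryos could stand behind 1 embryonic microglia library, with sexes mixed. At P14 the labels give mixed sex apart from saline replicate 3, which was split into a female and a male library. The study's text speaks of as many P14 mice as libraries, so the number of animals behind a P14 library is uncertain. The p-values below measure only the spread between these libraries.

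TGF-β ligands are secreted in a latent form, bound to a propeptide that must be opened before the ligand can reach its receptors. Microglia and macrophages display this latent complex on their surface with Nrros (also called LRRC33), and integrins that contain the Itgb8 subunit, carried by neighbouring cells, can release it. The freed ligand brings Tgfbr2 and Tgfbr1 together, the receptors phosphorylate Smad2 and Smad3, and these enter the nucleus with Smad4, where Ski holds them back and Smad7, itself induced by the pathway, closes the loop at the receptor. In the brain this pathway is known for maintaining the identity of microglia, and genes such as P2ry12 and Tmem119 depend on it.

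The start sites of the members give the sequence context of the values below. RefSeq promoters (build GRCm38.p6) were matched for 8 of the 10 members, as 9 windows since Tgfbr1 has a pair of starts. Each window was the 250 bases before the annotated start, and both strands were searched for CAGAC, the core of the sequence that SMAD proteins bind (written GTCTG on the other strand). No other motif was searched. The core was in 5 of the 9 windows, those of Tgfb2, Tgfbr2, Nrros, Itgb8 and 1 of the Tgfbr1 starts, and in none of the Tgfb1, Smad3 and Ski windows. Of all 32851 promoters of that length, 42.2% held it and 11.7% held it at least 2 times. The 4 windows printed here belong to a receptor and a signal carrier that rose between E15 and P14 (Tgfbr2 and Smad3), to the tested member that was not called at either step of age (Nrros) and to the ligand found mainly in progenitor nuclei (Tgfb2). Each is read 5′ to 3′ along the gene's minus strand, with the core in either orientation in capitals. The genes behind them span chr9:116084293-116175360 (Tgfbr2), chr9:63646767-63757994 (Smad3), chr16:32142785-32165594 (Nrros) and chr1:186622792-186705989 (Tgfb2), and none overlaps another gene on its strand.
Tgfbr2, chr9:116175364-116175613: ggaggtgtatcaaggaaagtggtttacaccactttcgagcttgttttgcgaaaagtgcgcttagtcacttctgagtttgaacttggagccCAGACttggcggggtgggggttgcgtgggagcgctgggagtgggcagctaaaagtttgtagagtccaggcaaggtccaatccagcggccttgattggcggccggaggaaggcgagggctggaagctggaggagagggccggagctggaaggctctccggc
Smad3, chr9:63757995-63758244: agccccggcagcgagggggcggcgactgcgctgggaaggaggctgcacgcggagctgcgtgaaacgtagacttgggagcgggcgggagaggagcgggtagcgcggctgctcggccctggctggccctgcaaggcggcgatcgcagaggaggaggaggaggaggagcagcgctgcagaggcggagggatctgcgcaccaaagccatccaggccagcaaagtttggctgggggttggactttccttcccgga
Nrros, chr16:32165595-32165844: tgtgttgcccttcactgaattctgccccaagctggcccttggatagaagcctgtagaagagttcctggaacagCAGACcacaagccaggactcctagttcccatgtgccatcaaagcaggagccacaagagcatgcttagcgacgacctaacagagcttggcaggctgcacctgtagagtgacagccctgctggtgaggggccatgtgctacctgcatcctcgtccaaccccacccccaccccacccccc
Tgfb2, chr1:186705990-186706239: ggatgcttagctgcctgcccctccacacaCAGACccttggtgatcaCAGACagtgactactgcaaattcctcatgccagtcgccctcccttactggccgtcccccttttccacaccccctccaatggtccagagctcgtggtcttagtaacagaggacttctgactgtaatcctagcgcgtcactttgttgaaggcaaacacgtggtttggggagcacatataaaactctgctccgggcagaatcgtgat
The Smad3 window was 69.2% G and C and the Tgfb2 window 53.6%, against a median of 52.4% over all promoters. A match of 5 letters describes the window and is not a measured binding site.

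The libraries were checked against their labels before the members were read. Csf1r, which microglia express, stood at 992 to 1489 CPM (UMIs of the gene scaled to a common library total) at E13, 1319 to 2404 at E15 and 3443 to 3932 at P14, over 6004416 to 95922332 UMIs from 267 to 5528 cells per library. The nuclei libraries held 9125397 to 16382208 UMIs from 4386 to 5891 nuclei. In the nuclei, Csf1r counted 23 and 11 UMIs in the WT saline libraries and 4, 2 and 1 in 3 of the Csf1r-null libraries. The library labelled WT MIA 2 held 0 Csf1r UMIs and no microglia-like nuclei, and the library labelled Csf1r-null saline 2 held 10 Csf1r UMIs and 7 microglia-like nuclei, so these 2 go against their genotype labels. No value here checks their treatment labels, and the main differences that use them are given with and without them, whereas levels by type of nucleus include all 8 libraries. The E13 MIA 2 library shared 234 of its 375 cell barcodes with other embryonic libraries, 230 of them with E15 MIA 3, and the shared cells carried 94.1% of its UMIs. E13 MIA 1 shared 70 of 280 barcodes, 67 of them with E13 saline 1, and the shared cells carried 47.3% of its UMIs. The 2 P14 saline libraries of replicate 3 shared 239 barcodes, and no pair of nuclei libraries shared more than 14.

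In saline microglia, most of the pathway members tested rose with age. From E15 to P14, 7 of the 8 members tested rose (Smad3, Tgfbr1, Smad7, Tgfbr2, Ski, Smad2 and Tgfb1) and none fell, against 25.5% of 13468 tested genes called higher and 26.5% called lower. From E13 to E15, Tgfb1 alone of the 8 was called and it rose, against 15% of genes called higher and 11.4% called lower. The median log2 difference over the 8 members was 0.85 for the later step and 0.05 for the earlier, beside 0.03 and 0.04 over all genes tested. Tgfb2 and Itgb8 did not pass the filter on low counts here and are described separately. In these library sums, fewer cells of a type and less RNA per cell cannot be told apart. The labels do not separate age from sort and run, so these cannot be told apart either. Median UMIs per cell ran from 3682 to 6787 in P14 saline libraries, against 8399.5 to 14785 in embryonic saline libraries. Blood myeloid markers (S100a8, S100a9, Ly6c2, Ccr2, Plac8, Lyz2 and Retnlg) summed to 512 to 611 CPM in E15 saline libraries and 62.6 to 110 at P14. The part of these differences in the rises was not tested.

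Among the ligands, Tgfb1, the form that microglia make and also respond to, had non-overlapping levels at the 3 ages. It measured 212, 219 and 176 CPM in the E13 saline libraries, 293, 282 and 268 at E15, and 414, 442, 471 and 462 at P14. The earlier rise was 0.50 ± 0.11 on the log2 scale (SE; 1.41-fold, 95% interval 0.25 to 0.74, adjusted p = 0.00913 by edgeR's quasi-likelihood test) and the later one 0.43 ± 0.10 (1.35-fold, adjusted p = 0.00522). Without the clusters of dividing cells the later difference was 0.38 with an adjusted p of 0.0552. Tgfb2, the other ligand, was near its detection limit in microglia: 16, 52 and 14 UMIs were counted over all saline libraries of E13, E15 and P14, and no library of either treatment exceeded 0.999 CPM. It did not pass the count filter in the saline model. In the 7 alternative fits where it was kept, it was called lower at P14 than at E15 in each, by -1.46 to -1.73 on the log2 scale. Tgfb2 averaged 0.344 CPM in E15 saline libraries, against 0.171 at E13 and 0.140 at P14. A filter by group can keep it through the age where it is highest, so these calls are not read as a fall.

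Of the genes that hold and release the latent ligand, Nrros was tested and not called, and Itgb8 was too low to test. Nrros, which tethers latent TGF-β on microglia, stood at 152, 158 and 140 CPM in E13 saline libraries, 163, 170 and 133 at E15, and 168, 144, 180 and 168 at P14. The ages overlapped, and neither step was called (0.08 ± 0.13, adjusted p = 0.70, and -0.15 ± 0.13, adjusted p = 0.325). The 95% interval of the earlier step ran from -0.22 to 0.37. Itgb8, the integrin subunit that releases the ligand, was counted at 16, 19 and 17 UMIs over the saline libraries of E13, E15 and P14, and at no more than 0.572 CPM in any microglia library.

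The receptors rose between E15 and P14. Tgfbr1, the receptor kinase that phosphorylates the SMADs, measured 379, 322 and 314 CPM at E13, 305, 403 and 517 at E15, and 1047, 1108, 1027 and 1093 at P14. Every P14 library lay above every embryonic one, and the rise from E15 was 1.16 ± 0.15 (2.24-fold, adjusted p = 8.83e-05). Tgfbr2, which binds the ligand first, measured 110, 98.2 and 102 CPM at E13, 66.7, 113 and 127 at E15, and 226, 250, 194 and 207 at P14. It rose by 0.88 ± 0.18 from E15 (1.84-fold, adjusted p = 0.00210), again without overlap between the ages. At E15 the libraries were spread more widely than at either other age, with saline replicate 1 lowest for both receptors. In that library 40.4% of cells fell in dividing clusters, against 13% and 15.3% in the other E15 saline libraries, and Csf1r stood at 1412 CPM against 2235 and 2233. The part of these differences in the receptor levels was not tested beyond leaving out the library or, in all libraries, the dividing clusters. Without E15 saline replicate 1, the E13 to E15 difference of Tgfbr1 was 0.44 (adjusted p = 0.0101, edgeR) and that of Smad7 0.50 (adjusted p = 0.00646), which brought the members called from 1 to 3.

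Of the signal carriers, Smad3 had the largest rise of the 8 members tested and Smad2 one of the smallest. Smad3 stood at 10.1, 10.3 and 10.1 CPM at E13, 8.13, 10.5 and 12.1 at E15, and 30.3, 33.0, 29.4 and 32.1 at P14. The groups E13 and E15 overlapped (0.02 ± 0.13), whereas P14 lay above both, with a rise from E15 of 1.38 ± 0.12 (2.60-fold, adjusted p = 8.81e-06). Smad2, which carries the same signal, stood at 36.3, 35.5 and 33.7 CPM at E13, 33.5, 34.8 and 34.7 at E15, and 55.5, 58.4, 53.5 and 51.5 at P14. It rose by 0.44 ± 0.09 after E15 (1.36-fold, adjusted p = 0.00207). The 95% interval of its earlier step, -0.23 to 0.20, spanned zero.

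Both inhibitors rose with the receptors. Smad7, the feedback inhibitor that the pathway itself induces, measured 69.2, 55.1 and 63.9 CPM at E13, 62.6, 76.8 and 101 at E15, and 177, 177, 174 and 193 at P14. Its rise from E15 was 0.94 ± 0.14 (1.92-fold, adjusted p = 0.000244), while the earlier difference of 0.37 ± 0.15 missed the threshold (adjusted p = 0.0820). Ski, a nuclear co-repressor of SMADs, measured 97.0, 95.6 and 89.8 CPM at E13, 68.1, 90.4 and 116 at E15, and 185, 207, 177 and 188 at P14, a rise from E15 of 0.82 ± 0.14 (1.76-fold, adjusted p = 0.000737). The share of cells in dividing clusters fell over the same ages, from 55.8 to 67.9% in E13 saline libraries to at most 0.948% at P14. The P14 share leaves out a cluster of 938 Pf4 and F13a1-high cells, in which 8 dividing markers exceeded 2-fold. That cluster stayed in the sums that follow. With the dividing clusters left out of the sums, Smad3, Tgfbr1, Smad7, Ski, Tgfbr2 and Smad2 were still called higher at P14, by 1.38, 1.15, 0.86, 0.85, 0.83 and 0.48.

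**Figure D1:**
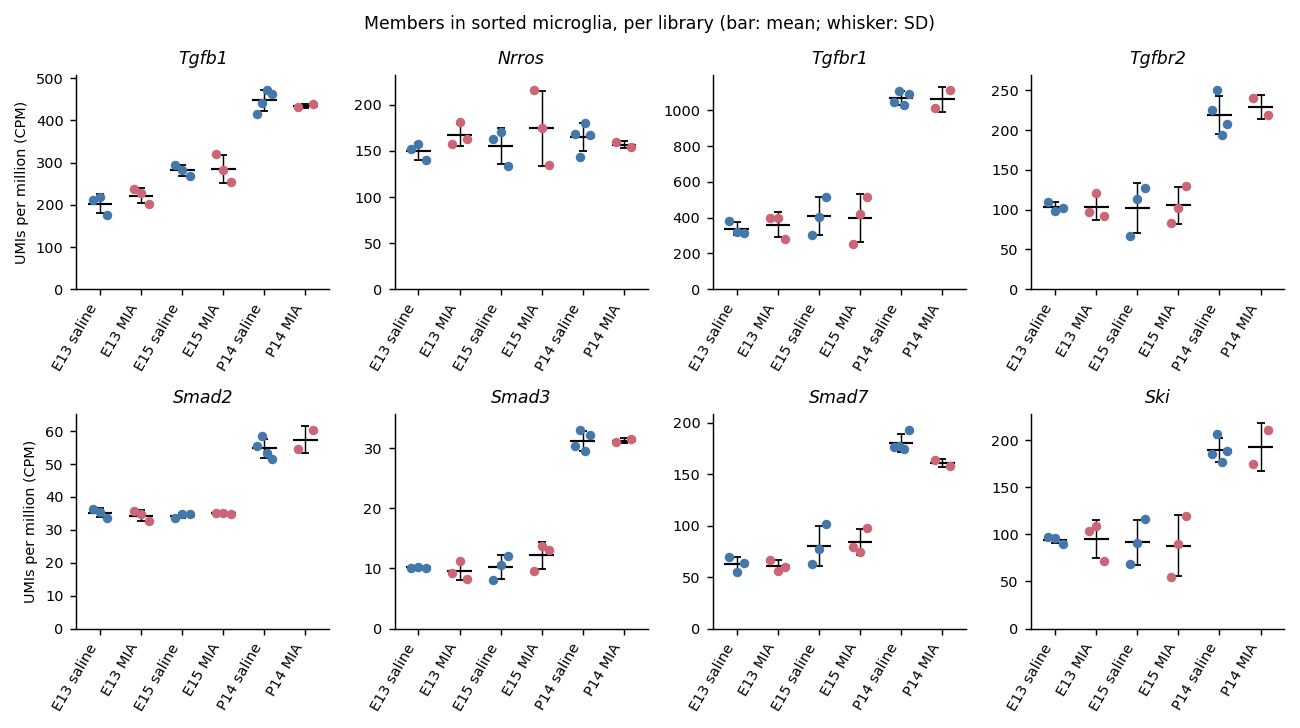
The plots of member levels in sorted microglia show, for the 8 members tested, CPM (vertical axis, a separate linear scale in each panel) against stage and treatment, with 1 point per library, saline in blue and MIA in red, a bar at the group mean and whiskers of 1 SD. Smad3, Tgfbr1, Tgfbr2, Smad7, Ski, Smad2 and Tgfb1 sit higher in all P14 libraries than in all embryonic ones, and Nrros overlaps between the ages.

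**Figure D2:**
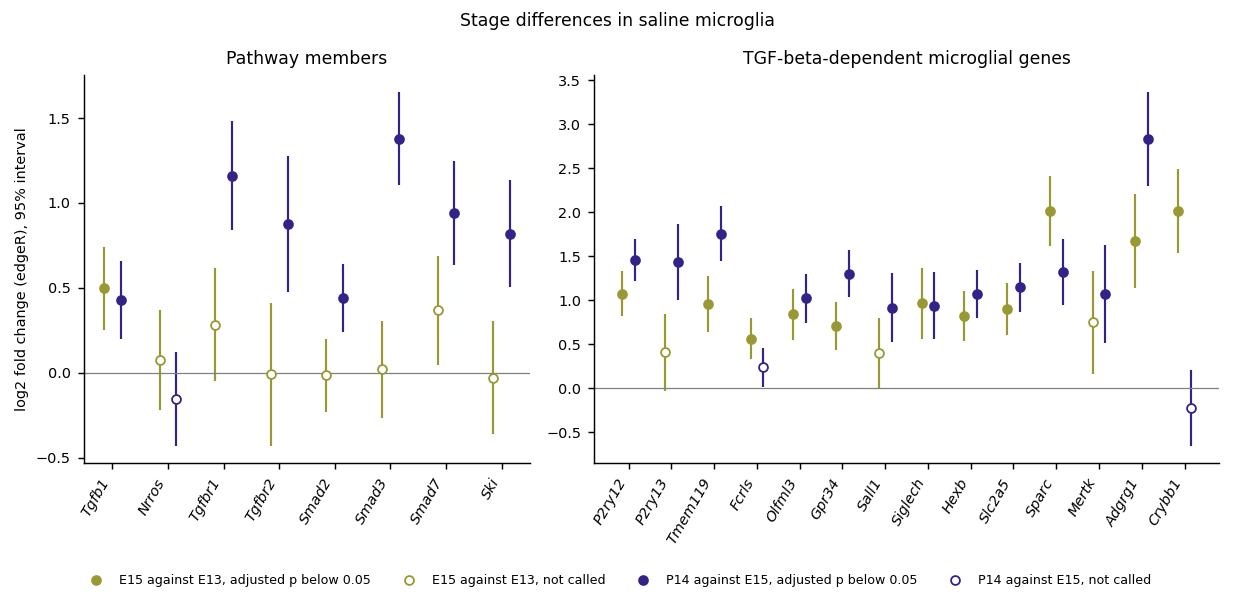
The plot of stage differences gives the log2 difference in saline microglia (vertical axis) of the 8 members (left) and of the 14 TGF-β-dependent microglial genes (right), for E15 against E13 and for P14 against E15, with 95% intervals from edgeR. Genes called at an adjusted p under 0.05 are filled: 1 member for the earlier step and 7 for the later one, and 11 and 12 of the dependent genes.

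Other genes of the pathway moved in both directions. Of 37 further ligands, binding proteins, co-receptors and regulators, 28 were tested, of which 6 rose and 1 fell between E13 and E15 (15% and 11.4% over all genes) and 13 rose and 6 fell between E15 and P14 (25.5% and 26.5%). The number that rose first ran from 4 to 11 when 1 library was left out, and was 11 without E15 saline replicate 1. Their medians were 0.25 and 0.23. Besides Eng, those that rose first included the integrin subunit Itgb5 (0.74) and the regulators Ldlrad4 (0.72) and Skil (0.54), and the one that fell was Strap, a receptor-associated inhibitor (-0.61 ± 0.19, adjusted p = 0.0327), a call that was lost with the replicate as a block, without the dividing clusters and without any of 4 of the saline libraries (E13 replicates 2 and 3, E15 replicates 2 and 3). Endoglin (Eng), an accessory receptor, rose at both steps, from 8.01 ± 0.431 CPM (SD, n = 3) at E13 to 19.3 ± 3.16 (n = 3) at E15 and 71.9 ± 0.754 (n = 4) at P14 (log2 differences 1.28 ± 0.12 and 1.67 ± 0.11, SE, adjusted p = 0.000154 and 1.50e-06). Pmepa1, a target that dampens the signal, rose from 267 ± 15.2 CPM at E13 and 348 ± 19.3 at E15 to 1256 ± 85.4 at P14 (later step 1.62 ± 0.11, adjusted p = 1.67e-06). Smurf1, a ubiquitin ligase that acts on SMADs and receptors, rose by 1.26 at the later step. Among those that fell after E15 were the SMAD adaptor Sptbn1 (-1.91 ± 0.15, adjusted p = 3.29e-06), the pseudoreceptor Bambi (-1.67), the receptor-binding immunophilin Fkbp1a (-1.22) and Thbs1, an extracellular activator of the latent ligand (-1.16).

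Most of the tested genes of microglia that depend on TGF-β rose at each step. The list held 15 symbols, of which Gpr56 and Adgrg1 name the same gene, and 14 were tested. Of these, 11 rose between E13 and E15 and 12 between E15 and P14, beside 15% and 25.5% of all genes called higher. None was called lower at either step, and the medians were 0.87 and 1.11. P2ry12, a purinergic receptor of microglial processes, went from 886 ± 33.2 CPM (SD, n = 3) to 1848 ± 336 (n = 3) and 5953 ± 134 (n = 4). Tmem119, a microglial surface marker, went from 187 ± 28.8 to 359 ± 63.4 and 1426 ± 38.6 CPM. The later differences were 1.46 ± 0.11 for P2ry12 (SE, adjusted p = 3.10e-06) and 1.76 ± 0.14 for Tmem119 (adjusted p = 3.93e-06). Sparc, a secreted matrix protein, had one of the steepest early rises on the list (2.01 ± 0.18, adjusted p = 0.000121). The adhesion receptor Adgrg1 rose by 1.67 and then by 2.83, among the largest values of the list at both steps. Crybb1 (-0.23) and Fcrls (0.24, adjusted p = 0.0703), named after their values were seen, were those not called at the later step.

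Targets that TGF-β induces in many cell types were mixed. The list held 16 symbols, a pair of which names the same gene, and 13 were tested. Of these, 4 rose and none fell between E13 and E15, beside 15% and 11.4% of all genes, with a median of 0.40. The 4 were Id2 (0.60), Skil (0.54), Cdkn1a (0.76) and Pmepa1 (0.40). When 1 library was left out, between 3 and 5 were called higher and between 0 and 2 lower. Between E15 and P14, 6 rose and 4 fell, beside 25.5% and 26.5% of all genes, with a median of 0.51. Among those that rose were the cell cycle inhibitor Cdkn2b (3.32 ± 0.40, SE), Pmepa1 (1.62) and Skil (0.74). Those that fell were Id1 (-2.61), Cdkn1a (-1.38), Id2 (-1.05) and Tgfbi (-1.04). This list shares Smad7, Skil and Pmepa1 with the other lists and the members, so the counts are not separate evidence.

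The genes whose levels over the 18 microglia libraries were most like each member were ranked by Pearson's r of log2 CPM among 14174 genes, as a description in which the points share stage. For Smad3 these were Zcchc14 (r = 0.992), Elmo1 (0.991) and Clstn1 (0.99). For Tgfbr1 they were Rere (0.993), Nfatc1 (0.992) and Rab5a (0.992), and for Tgfbr2 Dusp7 (0.987), Mast3 (0.985) and Fam91a1 (0.982). Tgfb1 was nearest to Fscn1 (0.984), Rnf11 (0.983) and Smpd1 (0.981). The inhibitor Smad7 was nearest to Nbea (0.989), Trove2 (0.987) and Acadm (0.987), and Ski to Inpp5d (0.991), Sema4d (0.989) and Itgav (0.986), the last an integrin subunit that partners Itgb8. Smad2 was nearest to Stambpl1 (0.985), Chn2 (0.984) and Phyhip (0.984). Nrros, the member called at neither step, had a best match of 0.796 (Rbfox2), followed by Trim47 (0.774) and Sh3gl1 (0.761), lower than the matches of each other member ranked.

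Within a stage, members also varied between the kinds of cells in the sort, given here as levels without a test. At E15, Tgfbr1 averaged 522 ± 78.6 CPM (SD over 6 libraries with at least 20 such cells) in maturing microglia-like cells, 376 ± 76.4 in Ms4a7 macrophage-like cells (n = 6), 210.04 ± 46.8 in Spp1 and Ccl3-high cells (n = 6) and 88.7 ± 22.3 in Lyve1 and F13a1-high cells (n = 2). Smad7 was at 108 ± 14.2 CPM in maturing cells (n = 6) and 11.7 ± 13.7 in Lyve1 and F13a1-high cells (n = 2). Nrros was at 182 ± 39.5 CPM in maturing cells (n = 6) and 326 ± 51.9 in Lyve1 and F13a1-high cells (n = 2). Over both embryonic ages, the clusters set aside as other cells held Tgfb2 at 10.1 ± 6.03 and Itgb8 at 14.6 ± 5.55 CPM, both above any whole microglia library. At P14 the large unnamed class of microglia held Smad3 at 32.5 ± 1.32 CPM, Smad7 at 160 to 203 (mean 179) and Tgfb1 at 456 ± 30.1 (n = 6), and the Pf4 and F13a1-high cells held 10.8 ± 3.07, 56.0 ± 12.2 and 261 ± 29.0 (n = 6). Those cells exceeded 2-fold in 9 Ms4a7 macrophage markers and in 8 dividing markers. Their 10 leading genes also included Hbb-y, Hells and Pclaf, and their median was 2518 UMIs a cell.

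MIA was compared with saline at each age to ask whether the mother's immune response changed the pathway in microglia, and edgeR called none of the members at any age. At E13, 8 members were tested and 0 were called, among 12408 genes of which 0% were called (128 at an unadjusted p under 0.05, and 2 by DESeq2). At E15, 9 were tested including Tgfb2 and 0 were called, among 13172 genes of which 0% were called (39 at an unadjusted p under 0.05, 0 by DESeq2). At P14, 8 were tested and 0 were called, among 12924 genes of which 0% were called (489 at an unadjusted p under 0.05, 1 by DESeq2). No member was at an unadjusted p under 0.05 in any of the 3 main edgeR fits, which use no replicate block, and DESeq2 called no member. At each age, fewer genes were under 0.05 than evenly spread p-values would give, most clearly at E13 and E15. The lack of calls is therefore not read as a lack of change.

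At E13 the MIA libraries held Tgfb1 at 237, 227 and 202 CPM, which overlapped the saline range of 176 to 219. Nrros stood at 158, 181 and 163 CPM against 140 to 158, a difference of 0.14 ± 0.11 (adjusted p = 1.00, edgeR). The lowest difference was that of Smad3, which measured 9.30, 11.2 and 8.20 CPM (-0.13 on the log2 scale). The E13 MIA 2 library, most of whose UMIs lie in shared barcodes, was the highest of the 3 MIA libraries for Nrros and Smad3 and lay between the others for Tgfb1. Leaving out every cell with a shared barcode, or keeping it only where it was deepest, again gave 0 members called.

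At E15 the saline and MIA libraries of the same replicate number sat together. Tgfbr1 measured 305, 403 and 517 CPM in saline replicates 1, 2 and 3 and 254, 420 and 517 CPM in MIA replicates 1, 2 and 3. Ski had the same order, at 68.1, 90.4 and 116 CPM in saline and 54.2, 90.2 and 120 in MIA. Both genes were thus lowest in the replicate 1 libraries and highest in the replicate 3 libraries of each treatment, and Csf1r was lower in the replicate 1 libraries too, at 1412 and 1319 CPM against 2158 to 2404 in the other 4. Other cells made up 25.5% of the E15 MIA 1 library before they were set aside, against 5.43 to 8.78% of the other E15 libraries, and their part in these levels was not tested. Dividing clusters held 9.99% of cells in E15 MIA 1, the library lowest for both genes, and 40.4% in E15 saline 1. The Tgfbr1 difference was -0.04 ± 0.28, with a 95% interval of -0.68 to 0.61, and -0.05 ± 0.10 with the replicate as a block. Smad3 had the largest difference at this age, with 9.62, 13.7 and 13.1 CPM after MIA against 8.13, 10.5 and 12.1, which is 0.26 ± 0.20 (interval -0.21 to 0.72, adjusted p = 1.00, edgeR). It was higher after MIA in 3 of 3 replicate pairs, and with the replicate as a block the difference was 0.26 ± 0.11 (adjusted p = 0.994, edgeR). Nrros and Smad2 were also higher in 3 of 3 pairs, at 216, 174 and 134 CPM after MIA against 163, 170 and 133 for Nrros, and at 35.2, 35.0 and 34.9 against 33.5, 34.8 and 34.7 for Smad2.

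At P14 both MIA libraries fell inside the saline range for Tgfb1, Nrros, Tgfbr2 and Smad3, and on either side of it or across its edge for Tgfbr1, Smad2 and Ski. Smad7 alone of the 8 members tested had no overlap, at 164 and 158 CPM against 174 to 193 in the 4 saline libraries. These count the female and male libraries of replicate 3 separately, and with that pair summed no member was called. The Smad7 difference was -0.14 ± 0.07 (interval -0.31 to 0.03, adjusted p = 0.933, edgeR), or -0.15 ± 0.06 with the replicate as a block (adjusted p = 0.734, edgeR). Tgfbr1, the receptor that Smad7 shuts off, read 1012 and 1111 CPM against 1027 to 1108. The interaction of treatment and stage, E15 against E13, was tested for 9 members and 0 were called (0% of 13507 genes, 54 at an unadjusted p under 0.05, 0 by DESeq2), with Smad3 at 0.44 ± 0.23.

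None of the genes in the 3 further lists was called with MIA at any age. The 14 TGF-β-dependent microglial genes tested had values above zero at E15 in every case, from 0.02 to 0.48 with a median of 0.14 beside -0.0040 over all genes, and 5 of 14 were above zero at E13 and 9 of 14 at P14. Dividing clusters held 40.4, 13 and 15.3% of cells in the E15 saline libraries and 9.99, 15.1 and 21.5% in the E15 MIA libraries. A fit without those clusters was run, but its values for these 14 genes are not given here. The same 14 had interaction values from 0.06 to 0.56. These values share their saline and MIA libraries and are not independent of each other.

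**Figure D3:**
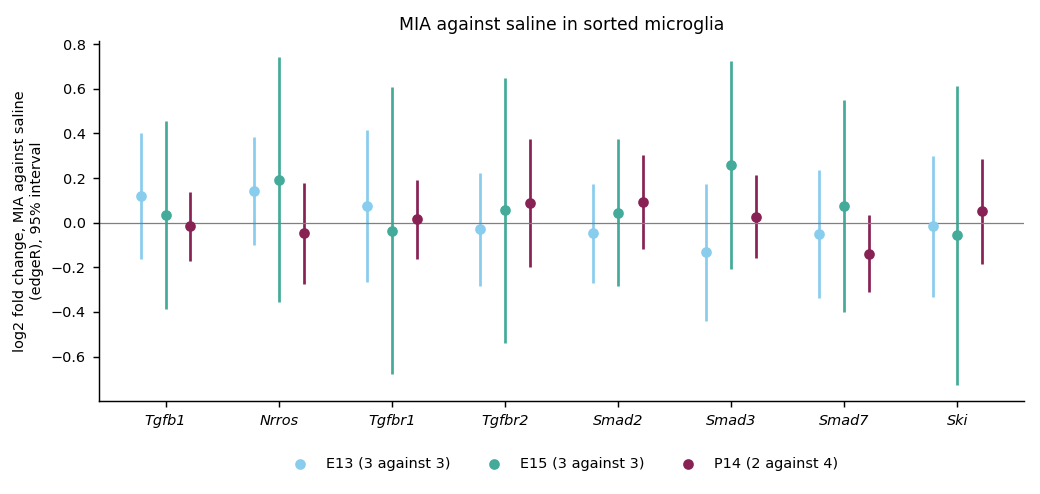
The plot of MIA differences in microglia gives the log2 difference between MIA and saline libraries for 8 members (vertical axis, 1 column per gene) at E13, E15 and P14, with 95% intervals from edgeR. Every interval of the 8 members drawn crosses zero, and for each of them the E15 interval is the widest of the 3 ages. The fits drawn do not use the replicate as a block, which made the E15 SE of Tgfbr1 and Smad3 smaller. Tgfb2, tested at E15 only, is not drawn (-0.03 ± 0.56).

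In the cortical nuclei the members divided by cell type. Tgfb2, nearly absent from microglia, was found mainly in apical progenitors (APs), the stem cells that line the ventricle. It averaged 139 ± 25.2 CPM in AP-like nuclei (SD, n = 8 libraries), 11.2 ± 5.78 in intermediate progenitor (IP)-like nuclei and 2.16 to 4.76 in the other 5 of the 7 main types. AP-like nuclei made up 11.2 ± 1.64% of nuclei and 9.23 ± 1.53% of UMIs but held 77.2 ± 5.77% of the Tgfb2 UMIs, between 67.5 and 84.7% in each of the 8 libraries. The members and the 3 further lists took no part in the clustering or in the naming of types, and these levels are given as descriptions without a test.

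Among the 7 main types, Itgb8 had its highest level in AP-like nuclei as well, at 98.4 ± 10.3 CPM, followed by interneuron-like nuclei at 37.9 ± 5.85 and IP-like nuclei at 29.1 ± 7.58, and the last pair overlapped within its spread. Migrating neuron-like nuclei were at 10.6, callosal projection neuron (CPN)-like nuclei at 6.85, corticothalamic (CThPN)-like nuclei at 3.37 and subcerebral (SCPN)-like nuclei at 1.27 CPM. Outside these types, a cluster high in Ebf1 and Isl1 held Itgb8 at 51.8 ± 9.56 CPM (n = 2). That mean joins 45.1 CPM from 92 UMIs in WT saline 1 and 58.6 CPM from 4 UMIs in the library labelled Csf1r-null saline 2. The other libraries had 10 to 17 such nuclei each and read 57.0 to 414 CPM, from 1 to 10 UMIs a library. Whether this cluster lies below or above AP-like nuclei is thus not settled. AP-like nuclei held 50.8 ± 7.44% of the Itgb8 UMIs. Of the 7 types, Smad3 was also highest in AP-like nuclei, at 9.32 ± 2.60 CPM, then in interneuron-like nuclei at 4.38, and at 0.654 to 1.95 in the other 5.

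The receptor Tgfbr1 was spread over neurons and progenitors of the 7 types. It stood at 195.9 ± 37.3 CPM in CPN-like, 148 (120 to 161) in CThPN-like, 139 ± 22.9 in migrating neuron-like, 133 ± 11.6 in IP-like, 133 ± 18.9 in SCPN-like, 114 ± 14.6 in AP-like and 44.9 ± 11.8 in interneuron-like nuclei. Neighbours from CThPN-like to AP-like overlapped within 1 SD, and interneuron-like nuclei were below the rest. Its partner Tgfbr2, by contrast, averaged at most 1.73 CPM over the libraries in any of the 7 types. Smad2 was even, at 77.1 CPM in CThPN-like to 105 in AP-like nuclei. Smad7 ran from 90.8 ± 22.0 CPM in interneuron-like and 87.0 ± 31.2 in AP-like nuclei down to 22.8 ± 7.35 in migrating neuron-like nuclei. Ski ran from 79.3 ± 18.6 in interneuron-like nuclei to 16.0 ± 2.50 in migrating neuron-like nuclei. Tgfb1 and Nrros, prominent in microglia, averaged at most 2.62 and 1.37 CPM in the same 7 types.

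The 31 microglia-like nuclei, found in 4 libraries, held 54473 UMIs in all and can only be read in the pool. Tgfbr1 counted 88 UMIs in them, or 1615 CPM (exact Poisson 95% interval 1296 to 1990, which covers counting error only). Smad7 counted 20 UMIs (367 CPM, 224 to 567), Tgfb1 14 (257 CPM, 141 to 431), Nrros 11 (202 CPM, 101 to 361) and Tgfbr2 9 (165 CPM, 75.5 to 314). No UMI of Tgfb2 or Itgb8 was seen, which allows up to 55.1 CPM of each at a limit of 3 counts, or 67.7 CPM as the upper end of the interval used for the other members. In these nuclei, as in the sorted microglia, Tgfb1, Tgfbr2 and Nrros were present above their level in the 7 other types. In the 59 Vtn and Rgs5-high nuclei, a vessel-associated cluster, Tgfb1 stood at 95.7 CPM (14 UMIs, 52.3 to 161), Tgfb2 and Tgfbr2 each at 54.7 CPM (8 UMIs, 23.6 to 108) and Smad3 at 34.2 CPM (5 UMIs, 11.1 to 79.8).

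**Figure D4:**
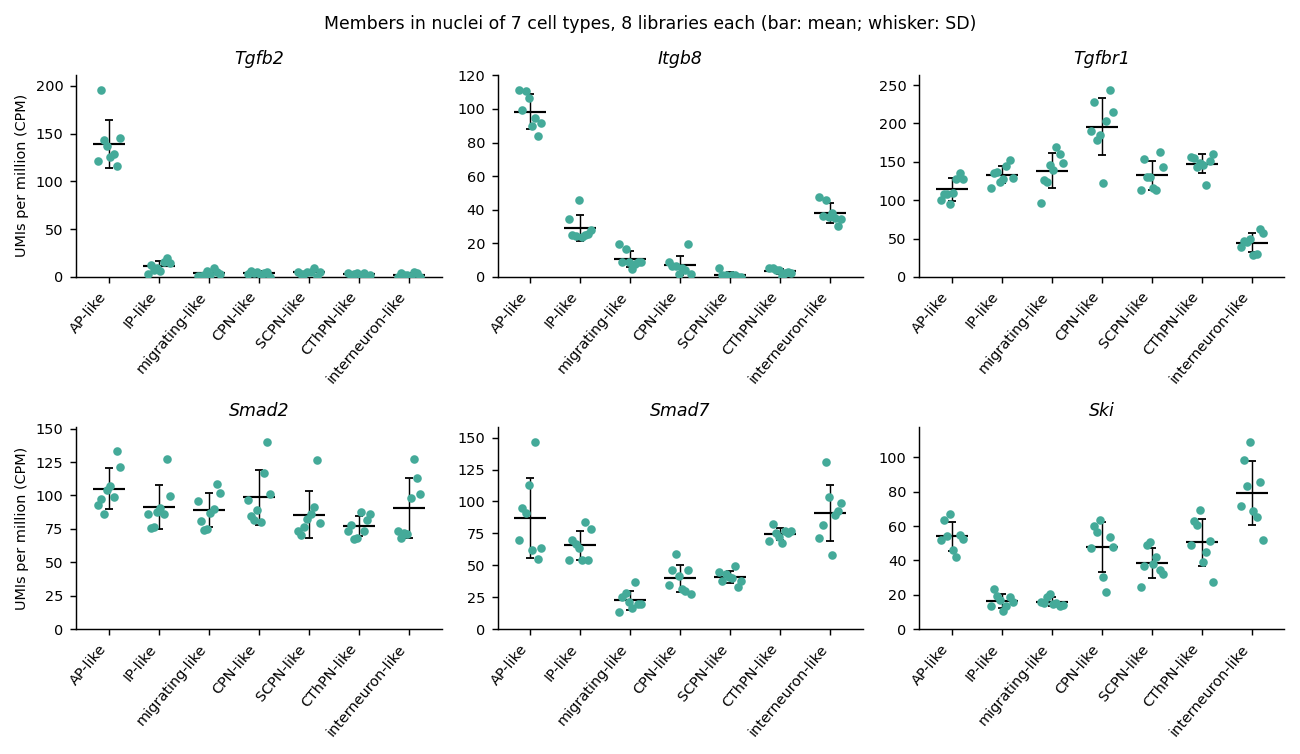
The plot of member levels by type of nucleus gives CPM (vertical axis, a separate linear scale in each panel) of 6 members in the 7 main types, with 1 point per library, a bar at the mean of the 8 libraries and whiskers of 1 SD. Tgfb2 and Itgb8 peak in AP-like nuclei at 139 and 98.4 CPM, Tgfbr1 is lowest in interneuron-like nuclei at 44.9 CPM, and Smad7 and Ski are lowest in migrating neuron-like nuclei at 22.8 and 16.0 CPM.

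The nuclei were then compared by treatment and genotype, to ask whether MIA changed the cortex with and without microglia. All 10 members were tested among 14384 genes and edgeR called 0 of them in each of 5 comparisons, in which 0% of genes were called. Genes at an unadjusted p under 0.05 numbered 794 for MIA in wild type, 39 for MIA in Csf1r-null, 259 for the interaction, 830 for genotype after saline and 55 for genotype after MIA. DESeq2 called 4, 1, 2, 4 and 0 genes, none of them a member.

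Tgfb2 was higher in both libraries labelled WT MIA than in the other 6. Its level over all nuclei was 14.6 and 14 CPM in the WT saline libraries, 23.3 and 23.1 in those labelled WT MIA, 13.1 and 13.5 in those labelled Csf1r-null saline, and 16.8 and 15.0 in the Csf1r-null MIA libraries. Within replicate 1 the WT MIA library stood 1.60 times the WT saline library, and the replicate 2 pair rests on a library whose labels are in doubt. The WT saline 1 library also held 932 Ebf1 and Isl1-high nuclei, a cluster with at most 1.96 CPM of Tgfb2. These nuclei carried 2041887 of the 12049786 UMIs of that library. They therefore lower its Tgfb2 level, and the ratio of 1.60 would be smaller without them. A fit without this cluster was not run, so the differences below include it. The difference was 0.62 ± 0.16 on the log2 scale (interval 0.25 to 0.99, adjusted p = 0.886 by edgeR). With the replicate as a block it was 0.62 ± 0.15 (adjusted p = 0.282, edgeR), and without the 2 libraries that go against their genotype labels it was 0.61. The last fit leaves 1 library in each of the WT MIA and Csf1r-null saline groups. Where an SE is given below for such a fit, it comes from the spread in the other groups. In Csf1r-null nuclei the difference was 0.26 ± 0.16, and the interaction of genotype and treatment, -0.36 ± 0.23, was not called (0.31 ± 0.26 and -0.30 ± 0.36 without those 2 libraries). After MIA, the Csf1r-null libraries were lower than the wild type by -0.49 ± 0.16 (adjusted p = 1.00), a difference that was -0.49 ± 0.25 without those 2 libraries. After saline the genotypes differed by -0.12 ± 0.16, or -0.19 ± 0.26 without them.

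The libraries labelled WT MIA also held the largest share of AP-like nuclei, 12.8 and 14.2%, against 10.6 and 10.7% in WT saline, 8.90 and 10.3% in those labelled Csf1r-null saline, and 11.7 and 10.7% in Csf1r-null MIA. By UMIs, the AP-like share was 10.2 and 8.93% in WT saline, 10.0 and 12.1% in those labelled WT MIA and 7.11 to 9.17% in those labelled Csf1r-null. The 932 Ebf1 and Isl1-high nuclei of WT saline 1 lower its share of AP-like nuclei. Without that cluster, the share of WT saline 1 would lie above that of WT MIA 1. The order of these libraries thus depends on the cluster, and the library labelled WT MIA 2 is in doubt. AP-like nuclei counted 480 of 4515 and 481 of 4479 nuclei in the WT saline libraries, 741 of 5787 and 724 of 5085 in those labelled WT MIA, 509 of 5719 and 586 of 5677 in those labelled Csf1r-null saline, and 512 of 4386 and 629 of 5891 in Csf1r-null MIA. Inside AP-like nuclei Tgfb2 measured 121 and 125 CPM in WT saline, 196 and 129 in WT MIA, 143 and 116 in Csf1r-null saline, and 137 and 145 in Csf1r-null MIA. The WT MIA pair was thus split, with only replicate 1 clearly above the rest. The WT difference within AP-like nuclei was 0.33 ± 0.22 (adjusted p = 0.663, edgeR), or 0.57 without the 2 libraries in doubt, which leaves 1 WT MIA library. The part of the AP share in the whole-library difference was not tested further.

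Itgb8 over all nuclei was 30.6 CPM in WT saline 1 and 13.9 to 19.5 CPM in the other 7 libraries. That library also held 932 of the 1070 nuclei of the Ebf1 and Isl1-high cluster, which carried 92 of its 369 Itgb8 UMIs, and without that cluster the library stood at 27.7 CPM and the other 7 at 13.1 to 18.7. Tgfbr1 lay between 121 and 156 CPM, with both WT saline libraries (121 and 128) below the other 6 (136 to 156). Smad7 measured 54.9 and 46.3 CPM in WT saline and 62.6 and 65.0 in WT MIA, a difference of 0.27 ± 0.13 that was not called (0.22 ± 0.19 without the doubtful libraries), and between 48.6 and 60.7 in the Csf1r-null libraries. Smad2 ranged from 76.7 to 108 CPM and Ski from 27.6 to 52.4. Ski was at 36.3 and 31.8 CPM in WT saline and at 42.8 and 38.0 in those labelled Csf1r-null saline, a difference of 0.23 ± 0.26 that was not called (0.27 ± 0.31 without the doubtful libraries). Tgfb1 measured 1.91 and 1.96 CPM in WT saline, 0.916 and 1.07 in those labelled WT MIA, 1.04 and 2.96 in those labelled Csf1r-null saline and 0.285 and 1.27 in Csf1r-null MIA, from 4 to 27 UMIs a library. It was lower after MIA in both replicate 1 pairs, while each replicate 2 pair holds 1 of the doubtful libraries. The differences were -1.04 ± 0.75 in wild type (adjusted p = 0.925, edgeR) and -1.37 ± 0.78 in Csf1r-null (adjusted p = 1.00), or -1.16 ± 0.94 and -0.40 ± 0.96 without the doubtful libraries. Microglia-like nuclei numbered 9 and 6 in WT saline, 9 and 0 in WT MIA, 0 and 7 in Csf1r-null saline and 0 and 0 in Csf1r-null MIA, and their part in the Tgfb1 values was not tested. Smad3 was counted at 1.52 to 3.07 CPM, Tgfbr2 at 0.427 to 1.17 and Nrros at 0.548 to 1.26.

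**Figure D5:**
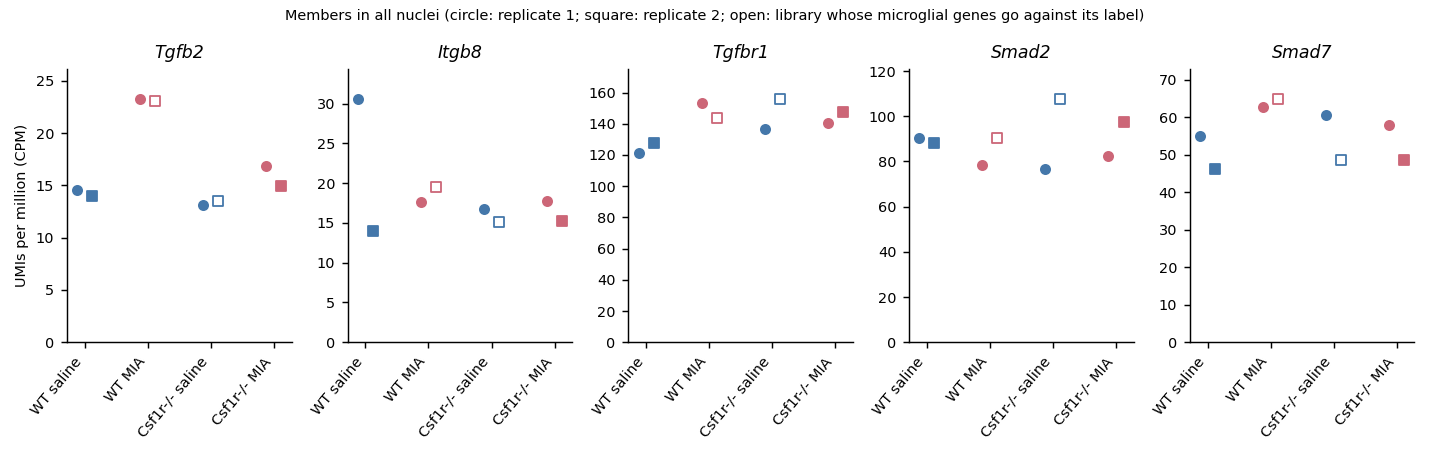
The plots of member levels over all nuclei show CPM (vertical axis, a separate linear scale in each panel) of 5 members by genotype and treatment, with a circle for replicate 1, a square for replicate 2 and open squares for the 2 libraries that go against their genotype labels. Tgfb2 is at 23.3 and 23.1 CPM in WT MIA and at 13.1 to 16.8 CPM in the other 6 libraries, and 1 WT saline library stands apart for Itgb8 at 30.6 CPM.

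Tests inside each of the 7 types gave 38 pairs of member and type in each comparison and 0 calls by edgeR. At an unadjusted p under 0.05 there were 3 pairs for MIA in wild type, 1 for MIA in Csf1r-null, 1 for the interaction, 2 for genotype after saline and 0 for genotype after MIA, and DESeq2 called none of the pairs. Over all genes, edgeR called 0% in each of the 7 types and each comparison. For MIA in wild type, 984 of 10724 genes in AP-like nuclei were at an unadjusted p under 0.05, and DESeq2 called 58 genes in AP-like, 1 in CThPN-like and 16 in interneuron-like nuclei. The 3 pairs for MIA in wild type were Smad7 in migrating neuron-like nuclei, Smad7 in AP-like nuclei and Tgfb2 in IP-like nuclei. Smad7 in migrating neuron-like nuclei measured 13.6 and 16.9 CPM in WT saline, 25.2 and 37.2 in WT MIA, 28.1 and 20.1 in Csf1r-null saline and 21.5 and 19.6 in Csf1r-null MIA (WT difference 0.97 ± 0.31, adjusted p = 0.749, edgeR). The WT saline pair was lowest of the 4 groups there, and the interaction was -1.21 ± 0.44 (adjusted p = 1.00). Without the doubtful libraries these were 0.63 ± 0.38 and -1.06 ± 0.53. In AP-like nuclei Smad7 measured 70.0 and 62.0 CPM in WT saline, 95.3 and 147 in WT MIA, 90.7 and 54.9 in Csf1r-null saline and 113 and 63.5 in Csf1r-null MIA (WT difference 0.79 ± 0.30, adjusted p = 0.476). The highest of these 8 values came from the library labelled WT MIA 2, which held no Csf1r UMI, and without both doubtful libraries the difference was 0.43 ± 0.31.

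Tgfb2 in IP-like nuclei rested on few molecules, with 3 and 5 UMIs in WT saline, 19 and 19 in WT MIA, 8 and 15 in Csf1r-null saline and 10 and 15 in Csf1r-null MIA. The WT difference was 1.58 ± 0.66 (adjusted p = 0.926, edgeR), or 1.4 ± 0.77 without the doubtful libraries, and the WT saline libraries were again the low ones. Among Csf1r-null nuclei, Itgb8 in CPN-like nuclei counted 10 and 11 UMIs after saline and 3 and 1 after MIA (-2.60 ± 0.87, adjusted p = 1.00), or -1.70 ± 0.97 without the doubtful libraries. After saline, Smad7 in interneuron-like nuclei was higher in the Csf1r-null libraries by 0.76 ± 0.26 (adjusted p = 0.482), and 1 of the 2 Csf1r-null saline libraries is the one whose Csf1r counts go against its label (0.91 ± 0.34 without it and its counterpart). Of the further lists, 30 other pathway genes, 10 TGF-β-dependent microglial genes and 11 general targets were tested over all nuclei, and 0 were called in any of the 5 comparisons.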

How the data were processed

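Single-cell (sorted microglia) and single-nucleus (cortex) RNA libraries were prepared with 10x Chromium 3′ chemistry. The authors deposited raw UMI counts per gene and barcode, aligned to mm10 with Cell Ranger (3.1.0 in the submitters' processing notes and in the file headers of all microglia and the replicate 1 nuclei libraries, which list 31053 genes, and 6.0.1 in those of the replicate 2 nuclei libraries, which list 32285). Antisense and intronic counting were not given in the sources used here. Tables were joined on Ensembl identifiers.

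Filters kept sorted cells that had 500 or more genes and no more than 20% of UMIs from mitochondria, and nuclei that had 500 or more UMIs and 200 or more genes. Scrublet scores removed the top 0.8% per 1000 cells of each library as doublets. Cells were clustered in scanpy 1.11.5 (2000 variable genes without the pathway lists, 30 components, 20 neighbours, Leiden resolution 1, leidenalg 0.10.2). A cluster was named "-like" where at least 3 markers of 1 list exceeded 2-fold and outnumbered those of every other list, a rule set after the clusters were seen. Shallow clusters with no such marker among their top 10 genes stayed unnamed, a few clusters were called by leading genes instead, and clusters under 0.4 of the median microglial marker level were set aside as other cells. UMIs of the remaining cells were summed per library, and CPM values are a gene's UMIs divided by that sum and scaled to the same total in every library. Levels by class used libraries with at least 20 cells of the class.

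Sums were tested with edgeR 4.0.16 in R 4.3.3 (TMM, filterByExpr by group, quasi-likelihood test, Benjamini-Hochberg adjustment within a comparison, threshold 0.05). The 3 stages of saline microglia shared 1 model, as did the 8 nuclei libraries. E15 against E13 and P14 against E15 share the E15 saline libraries, and the nuclei comparisons share groups. Alternatives were RLE size factors, no count filter, DESeq2 1.42.0, the replicate number as a block, all cells, no dividing clusters, nuclei with at least 1000 UMIs, each library left out in turn, the female and male libraries of P14 saline replicate 3 summed, and others chosen after the data were seen (shared barcodes). The scripts were tested on simulated data. Intervals are at 95%, and a count of 0 allows up to 3 counts. The members and lists were chosen with earlier results of these data known. All members are named. From each list at most 4 called genes per direction and comparison are named, those with the smallest adjusted p, and the 3 most correlated genes per member. A gene that this rule would name is not reported here.

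Same-numbered libraries were compared by the correlation of their deviations from the group means: 0.32, 0.063 and 0.40 at E13, 0.59, 0.22 and 0.60 at E15, 0.23 and 0.27 at P14 (2 pairs), and 0.51 to 0.71 in the nuclei, where the number also goes with the software version. Among microglia, differences were counted by replicate pair at E15 only, where 3 of 3 values exceeded 0.1. The values at P14 and in the nuclei also exceeded 0.1, so that limit does not set E15 apart. Same-numbered nuclei libraries were also set side by side. The main fits used no replicate block for any microglia stage or for the nuclei, so replicate differences stay in their spread. The block was run as an alternative.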

Additional observations from a re-analysis of the deposited data

Results flagged for a closer look

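Smad7, the feedback inhibitor of the pathway, measured 193 CPM in the male library of P14 saline replicate 3 and 174 to 177 CPM in the other 3 P14 saline libraries. Its gap to the nearest library, as a share of the range of the 4, was above the 95% critical value of Dixon's test for 4 samples. By chance, about 1 in 20 such groups would be picked out. The library shared 239 barcodes with the female library of the same replicate, in which Smad7 was at 174 CPM.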

How the results depend on the processing

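The number of members called between E13 and E15 moved most, from 1 to 2 without the clusters of dividing cells (Smad7 added, 0.42, adjusted p = 0.0493), and it ranged from 1 to 3 when each library was left out in turn, the 3 coming without E15 saline replicate 1 (Smad7 and Tgfbr1 added). Tgfb1 kept its call in every setting, at 0.42 to 0.56. Between E15 and P14 the count of calls in either direction was 7 to 8. The 8 always included Tgfb2 (called lower), which passed the filter on low counts in 7 of the 20 settings only, so that call is not read as a result. Tgfb1 was at 0.38 (adjusted p = 0.0552, edgeR) without the dividing clusters, so 6 members rather than 7 were called higher in that setting. Those 6 kept their direction and call under each setting, Smad3 at 1.25 to 1.49 and Tgfbr1 at 1.00 to 1.33. With MIA, and in the nuclei, 0 members were called under any alternative, with lowest adjusted p-values of 0.895 at E13, 0.994 at E15, 0.546 at P14, 0.282 over all wild-type nuclei and 0.0868 in AP-like nuclei. With the replicate block the counts were 1 for E15 against E13, 7 for P14 against E15 and 0 in each MIA and nuclei comparison, so it changed no call of a member. In the other lists, the pathway genes called higher between E13 and E15 were 11 without E15 saline replicate 1, against 6. No value named here changed its sign while called. Cells of shared barcodes, treated in 2 ways chosen after the data were seen, left the counts of members called at 0, 1 or 7 as before. Tgfb2 and Itgb8 in microglia, and Tgfb1, Tgfbr2, Smad3 and Nrros in nuclei, rest on few UMIs, and the depth limits what can be seen of them.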
